A study of Rattus norvegicus with 5 samples.

Results

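The tumor necrosis factor (TNF) superfamily is a set of cell surface and secreted ligands that form trimers, with a matching set of receptors. Receptors with an intracellular death domain can recruit TRADD or FADD and lead to NF-kB activity or to cell death, and receptors without one bind TRAF proteins directly and signal to NF-kB and MAP kinases. In sensory ganglia TNF itself is known as an inflammatory mediator that sensitises nociceptors, the pain-sensing neurons. Members were chosen by symbol in the combined gene table: every symbol starting with Tnfrsf or Tnfsf, plus Tnf, Lta, Ltb, Ltbr, Fas, Faslg, Cd40, Cd40lg, Cd27, Cd70, Eda, Edar, Eda2r and Traf1 to Traf7. This gave 50 of 33014 genes, namely 18 ligands, 25 receptors and 7 TRAF genes. Receptors of the family under other symbols, such as Ngfr, were not counted.

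The 5 libraries were poly-A RNA-seq of dissociated dorsal root ganglion cells from a litter of 10 wild-type (WT) Sprague Dawley pups at postnatal day 10. Wells of 5000 cells received PBS after 1 day and were kept for 8 days in all, and each sample pooled 3 wells. All libraries form 1 group, numbered as replicates 1 to 5, and the labels name no separate litters or preparations, so p-values here reflect library-to-library spread alone, and that spread could be technical. There is no contrast between conditions, and levels are compared between genes within libraries in TPM (a share of all transcripts corrected for transcript length). Every marker listed for macrophages (10), neurons (8), Schwann cells (7), fibroblasts (6) and satellite glia (4) reached 1 TPM in all libraries, as did 2 of 5 endothelial, 0 of 5 T and NK cell and 0 of 4 B cell markers. The cultures are mixed, and the libraries do not show which cells expressed a gene. Libraries held 21596608 to 27913098 estimated reads, and a transcript of 1 kb at 1 TPM was backed by 13.3 to 17.4 reads. A value given with ± is a mean with its SD (n = 5).

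The receptor genes carried most of the family's RNA. The receptor genes summed to 525 ± 15.2 TPM, the TRAF genes to 132 ± 6.14 TPM and the ligand genes to 68.6 ± 2.56 TPM (SD, n = 5). Summed receptor TPM was 7.26 to 8.17 times the summed ligand TPM in single libraries. A gene was called detected when it had at least 1 TPM in every library. By that rule 25 of 50 members were detected, against 41.3% of all genes in the table. The median member was at 1.72 TPM, beside 0.297 TPM for the median gene of the whole table. Tnfrsf1a alone held 28.5% ± 0.309 of summed receptor TPM, and together with Tnfrsf12a, Tnfrsf21 and Ltbr it made up most of that sum. The median receptor gene was at 2.08 TPM and the median ligand gene at 0.712 TPM. Detected members numbered 13 of 25 receptors, 7 of 18 ligands and 5 of 7 TRAF genes. The receptors were 5 of 6 with a death domain, 6 of 16 without and 0 of 1 soluble decoy. Tnfrsf22 and Tnfrsf26, grouped apart from these, were both detected.

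**Figure D1:**
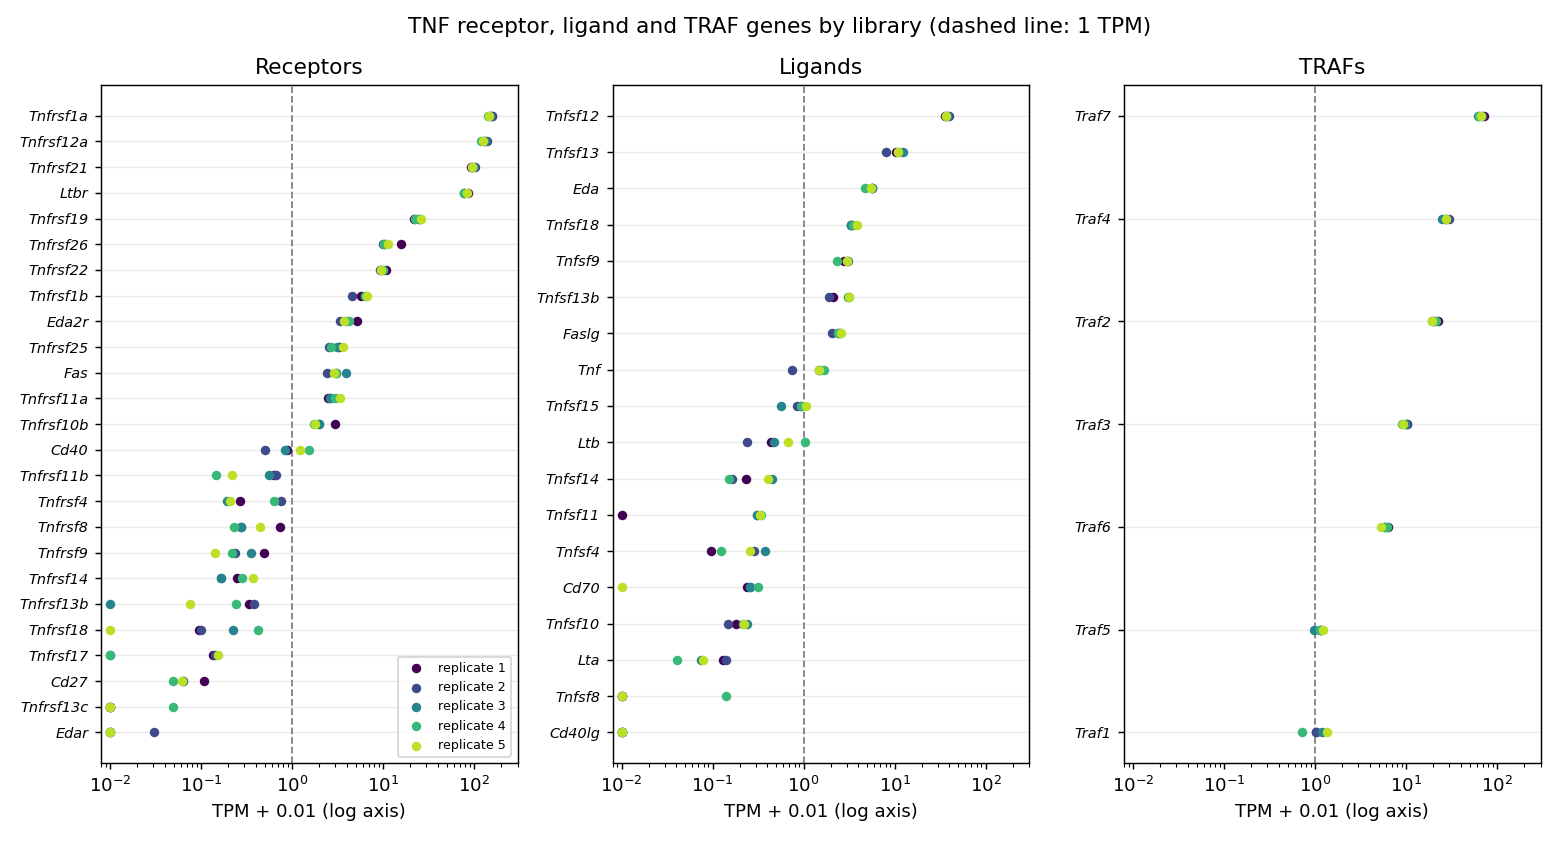
TPM of each member in each library on a log axis with 0.01 added, with receptors, ligands and TRAF genes in separate panels, 1 point per replicate and a dashed line at 1 TPM. Tnfrsf1a, Tnfrsf12a, Tnfrsf21 and Ltbr sit highest among receptors, between 77.2 and 156 TPM, while Tnfsf12 is the only ligand above 15 TPM.

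Each gene's log2(TPM + 0.1) was also tested against the value for 1 TPM with limma over all genes that had a value above 0 in any library. Of 49 members tested, 26 lay above 1 TPM at a limma adjusted p under 0.05, a call made for 56.0% of all genes tested. A further 19 members lay below 1 TPM, against 39.6% of all genes tested. The 4 members with neither call were Tnf (log2 difference from 1 TPM 0.37, limma adjusted p = 0.0866), Traf1, Cd40 and Tnfsf15. Traf5 was called above by a narrow margin (log2 0.14, limma adjusted p = 0.0479), and the call was lost without replicate 1, 2, 4 or 5 (limma adjusted p = 0.105 to 0.134). Sums of named transcripts put Traf5 below 1 TPM. Without replicate 2, Tnf was called above (log2 0.56, limma adjusted p = 0.000252). Ltb, called below, lost its call without replicate 1 or replicate 3 (limma adjusted p = 0.0667 and 0.0623).

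Among receptors with a death domain, Tnfrsf1a was the highest and was the highest member of the whole family. Tnfrsf1a, the ubiquitous receptor for TNF and lymphotoxin alpha, was at 156, 155, 148, 142 and 147 TPM in replicates 1 to 5. The 5 values lay within a narrow band, with a CV (SD as a percent of the mean) of 3.85%, and the mean ranked 1090 among all 33014 genes. Tnfrsf21, the gene of death receptor 6, which has been reported to bind a fragment of the amyloid precursor protein in neurons, was at 91.7, 102, 93.7, 97.1 and 94.8 TPM. Its highest library was replicate 2, and in every library it stayed below Tnfrsf1a. Tnfrsf21 over Tnfrsf1a gave a log2 ratio of -0.64 ± 0.08 (SD, n = 5), with Tnfrsf21 lower in 5 of 5 libraries (exact two-sided sign-flip permutation test p = 0.0625). That p is the smallest that 32 sign patterns allow, so no pair in this design can pass 0.05, and the count of libraries is given for each pair instead. In all 30 pairs were compared.

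The remaining death domain receptors were much lower. Tnfrsf25, or death receptor 3, was at 3.27, 2.56, 3.09, 2.66 and 3.59 TPM, and Fas, the receptor of the Fas ligand, was at 3.04, 2.40, 3.86, 2.99 and 2.85 TPM. The ranges of Tnfrsf25 and Fas overlapped, with Tnfrsf25 higher in 3 of 5 libraries. Tnfrsf10b, a TRAIL receptor gene, stood at 2.08 ± 0.495 TPM. In the GRCr8 gene table it overlaps Rhobtb2, which was at 7.70 to 8.96 TPM here, and with the strand setting not given in the sources used here its level is uncertain. Edar, the receptor for ectodysplasin A1, was the single undetected member of this class, at 0 TPM in 4 libraries and 0.0203 TPM in replicate 2.

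In the class without a death domain, Tnfrsf12a and Ltbr led. Tnfrsf12a encodes Fn14, the small receptor for TWEAK and a gene known to be induced by growth factors and nerve injury, and stood at 129.7, 139.97, 132, 119 and 124 TPM. Replicate 2 was the highest and replicate 4 the lowest. Tnfrsf1a exceeded Tnfrsf12a in 5 of 5 libraries, by a log2 ratio of 0.21 ± 0.05 (exact sign-flip p = 0.0625). Sums of named transcripts, which hold 132 TPM of Tnfrsf1a, narrowed that ratio to 0.04 (exact sign-flip p = 0.25). Ltbr, the lymphotoxin beta receptor and an activator of the non-canonical NF-kB route, was at 86.7, 78.0, 78.1, 77.2 and 83.7 TPM. Tnfrsf19, also called TROY and known as a coreceptor in the Nogo receptor complex of neurons, was at 22.1, 24.9, 25.8, 22.6 and 25.9 TPM. It was lower than Tnfrsf21 in every library (log2 -1.98 ± 0.11, exact sign-flip p = 0.0625). In the combined table Tnfrsf1a, Tnfrsf12a, Tnfrsf21 and Ltbr stood in that order in 5 of 5 libraries.

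Lower but detected members of that class were Tnfrsf1b, the second TNF receptor, at 5.91 ± 0.845 TPM, and Eda2r, the receptor for ectodysplasin A2, at 4.07 ± 0.686 TPM. Tnfrsf11a, which encodes RANK, the receptor of osteoclast precursors and other myeloid cells, was at 2.79 ± 0.363 TPM. Tnfrsf22 and Tnfrsf26, grouped apart from that class and adjacent on chromosome 1 in the GRCr8 table, were at 9.80 ± 0.566 and 11.5 ± 2.43 TPM. They are related neighbours, so reads they may share were divided by the model and their separate levels are uncertain. Tnfrsf26 had no named transcript, so its level rests on transcripts that could not be named here. Named transcripts held all 9.80 TPM of Tnfrsf22. Tnfrsf26 was at 15.8 TPM in replicate 1 and at 10.1 to 11.2 TPM in the other libraries.

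The other 10 receptors without a death domain and the decoy receptor were not detected. Cd40, a costimulatory receptor of B cells and myeloid cells, ranged from 0.496 TPM in replicate 2 to 1.54 TPM in replicate 4. The plasma and B cell receptor genes Tnfrsf13b, Tnfrsf13c and Tnfrsf17 averaged 0.198, 0.00782 and 0.0803 TPM. The receptor genes Cd27, Tnfrsf4 (OX40), Tnfrsf8 (CD30), Tnfrsf9 (4-1BB), Tnfrsf14 (HVEM) and Tnfrsf18 (GITR) averaged between 0.0592 and 0.400 TPM. Tnfrsf11b, the soluble decoy receptor osteoprotegerin, was at 0.618, 0.662, 0.548, 0.137 and 0.208 TPM, with replicates 4 and 5 below the other 3.

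Tnfsf12, encoding TWEAK, was the leading ligand. It was at 35.4, 39.3, 37.7, 36.9 and 37.1 TPM, held 54.4% ± 2.85 of summed ligand TPM and had the lowest CV of the 25 detected members (3.77%). Tnfsf13, encoding APRIL and lying next to Tnfsf12 on chromosome 10 in the GRCr8 table, was at 10.4, 7.96, 12.5, 10.8 and 10.8 TPM. Replicate 2 was the lowest for Tnfsf13 and the highest for Tnfsf12, and Tnfsf12 exceeded Tnfsf13 in 5 of 5 libraries (log2 1.84 ± 0.27, exact sign-flip p = 0.0625). Both genes overlap Eif4a1l in the GRCr8 table, a gene not listed in the combined table, which adds doubt to their levels. Eda, the ectodysplasin gene known for hair and gland development, was at 5.69, 5.60, 5.71, 4.74 and 5.49 TPM, with replicate 4 the lowest.

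The other detected ligand genes stood between 2 and 4 TPM. Tnfsf18, the GITR ligand, averaged 3.45 ± 0.217 TPM, but its named transcript held only 0.147 TPM, so that level rests on transcripts that could not be named here. Tnfsf9, the 4-1BB ligand, was at 2.83 ± 0.301 TPM and Tnfsf13b, the B cell survival factor BAFF, at 2.68 ± 0.621 TPM. Faslg, the ligand of Fas and a gene best known from cytotoxic T and NK cells, was at 2.53, 2.06, 2.37, 2.35 and 2.56 TPM with 471 estimated reads over the libraries. Those reads were divided by the model between transcripts of 1623 and 9692 bases, and the Faslg level depends on that division. Summed markers of T and NK cells lay between 0.356 and 1.06 TPM per library. That sum came from Cd3g, at 0.162 to 1.06 TPM and above 0 in all 5 libraries, and from Cd2, at 0 to 0.417 TPM, while Cd3d, Cd3e and Nkg7 were at 0 in every library. The cell source of Faslg was not tested.

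Tnf was low and was not detected by the rule. It stood at 1.46, 0.734, 1.51, 1.66 and 1.47 TPM in replicates 1 to 5, with 147 estimated reads in all. Only replicate 2 fell short of 1 TPM. Lta and Ltb, the lymphotoxin genes that flank Tnf on chromosome 20 in the GRCr8 table, averaged 0.0828 and 0.562 TPM. Tnfsf15 averaged 0.861 TPM, and the remaining undetected ligand genes Tnfsf14, Tnfsf11 (RANKL), Tnfsf4, Cd70, Tnfsf10 (TRAIL) and Tnfsf8 averaged between 0.0258 and 0.270 TPM. Cd40lg had 0 reads, which allows a level of up to 0.0772 TPM over the 5 libraries (3 reads in all, counting error only).

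Receptors and their ligands were then compared within libraries over 20 cognate pairs. The receptor was higher in every library in 10 pairs, the ligand in 6, and 4 pairs were mixed. Both partners were detected in 3 pairs, the receptor alone in 6, the ligand alone in 5 and neither in 6. The 3 pairs with both partners detected were Tnfrsf12a with Tnfsf12, Fas with Faslg and Eda2r with Eda. Tnfrsf12a was 3.45-fold above Tnfsf12 (log2 1.79 ± 0.07, higher in 5 of 5 libraries, exact sign-flip p = 0.0625). Fas was 1.25-fold above Faslg (log2 0.33 ± 0.21, 5 of 5 libraries, exact sign-flip p = 0.0625). That gap is small beside its limits. Counting error alone gives a CV of 9.81% for Fas and 10.3% for Faslg. The Faslg level also depends on how its reads were divided between transcripts of 1623 and 9692 bases. Eda2r was lower than Eda, with a log2 ratio of -0.42 ± 0.26 (lower in 5 of 5 libraries, exact sign-flip p = 0.0625). The named transcript of Eda2r held no reads, so sums of named transcripts gave -5.79 for that pair.

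Receptors of TNF exceeded the ligand by wide margins. Tnfrsf1a over Tnf gave log2 6.72 ± 0.47 and Tnfrsf1b over Tnf gave log2 2.07 ± 0.25, each in 5 of 5 libraries (exact sign-flip p = 0.0625). Sums of named transcripts lowered the second to 1.28, and a pseudocount of 1 lowered the first to 6.01. Ltbr over Ltb gave log2 7.05 ± 0.66 in 5 of 5 libraries, or 5.73 with a pseudocount of 1. In the opposite direction, Tnfrsf13b lay below Tnfsf13 (log2 -5.36 ± 1.15) and Tnfrsf9 below Tnfsf9 (log2 -3.02 ± 0.53), in 5 of 5 libraries each, or -3.26 and -1.58 with a pseudocount of 1. Tnfrsf18 over Tnfsf18 gave -3.98 ± 0.93 in the combined table and turned to 0.12 with named transcripts alone (exact sign-flip p = 0.875). Tnfrsf11a over Tnfsf11 gave log2 3.20 ± 0.85 in 5 of 5 libraries, though Tnfsf11 rested on 13 reads in all and a pseudocount of 1 gave 1.60. Tnfrsf25 over Tnfsf15 gave log2 1.72 ± 0.34, or 0.92 with named transcripts alone, and Tnfrsf10b over Tnfsf10 gave 2.88 ± 0.41, or 1.36 with a pseudocount of 1, in 5 of 5 libraries each. In the decoy system, Tnfrsf11b lay below the signalling receptor gene Tnfrsf11a in 5 of 5 libraries (log2 -2.58 ± 0.93, or -1.41 with a pseudocount of 1). Tnfrsf11b over Tnfsf11 was mixed, at 3 of 5 libraries.

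**Figure D2:**
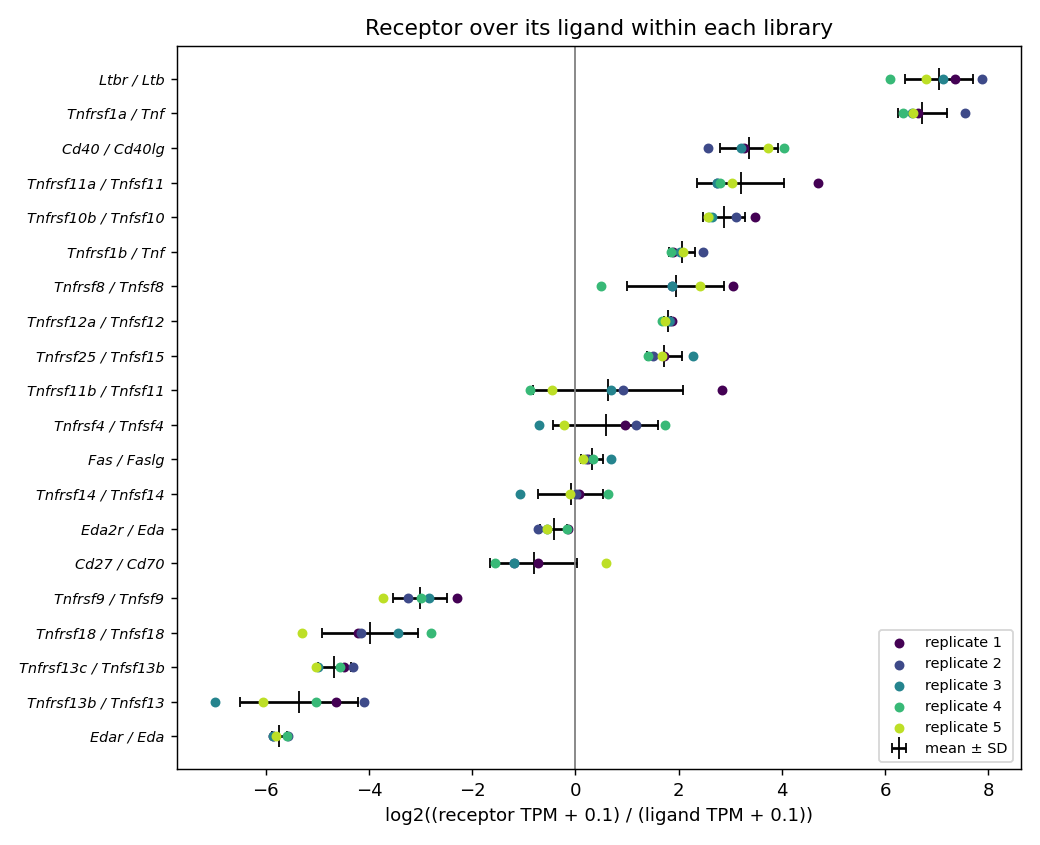
Log2 ratio of receptor over ligand TPM (0.1 added to each) for 20 cognate pairs, with 1 point per replicate and black bars for the mean ± SD over 5 libraries. Points right of 0 mean more receptor than ligand; Ltbr over Ltb and Tnfrsf1a over Tnf lie farthest right, at means of 7.05 and 6.72, and Edar over Eda lies farthest left.

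Traf7 was the highest TRAF gene in the combined table, but not by named transcripts. Traf7, the divergent member that lacks the domain by which other TRAF proteins bind receptors, was at 71.6, 67.5, 62.3, 63.0 and 67.3 TPM. Named transcripts held 25.5 TPM of it, against 26.6 TPM for Traf4. Traf4, known from neural tube and airway development in mice, was at 27.3, 29.7, 25.1, 27.3 and 27.2 TPM, and Traf2, the adaptor that brings the ubiquitin ligases cIAP1 and cIAP2 to TNF receptor complexes, at 22.6, 20.5, 19.3, 21.5 and 19.5 TPM. Traf4 exceeded Traf2 in 5 of 5 libraries (log2 0.40 ± 0.11, exact sign-flip p = 0.0625). Traf7 exceeded Traf2 by log2 1.68 ± 0.09 in the combined table, in 5 of 5 libraries, but by 0.28 with named transcripts alone (exact sign-flip p = 0.125).

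The other TRAF genes were lower. Traf3, an inhibitor of the non-canonical NF-kB route, was at 9.73 ± 0.582 TPM, and Traf6, which serves CD40, RANK and the interleukin 1 and Toll-like receptors, at 5.88 ± 0.397 TPM. Traf2 over Traf3 was log2 1.08 ± 0.12 (5 of 5 libraries, exact sign-flip p = 0.0625), or 2.26 with named transcripts alone. Traf2 over Traf6 was log2 1.80 ± 0.05 (5 of 5 libraries, exact sign-flip p = 0.0625). Traf1, an NF-kB target gene of activated lymphoid and myeloid cells, averaged 1.06 ± 0.241 TPM, below 1 TPM in replicate 4, and Traf5 averaged 1.11 ± 0.0942 TPM, below 1 TPM in replicate 3.

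In the combined table's order of all detected members, each of Tnfrsf1a, Tnfrsf12a, Tnfrsf21, Ltbr, Traf7 and Tnfsf12 lay above the next gene in every library with no overlap. By named transcripts Traf7 averaged 25.5 TPM, below Tnfsf12 at 37.3 TPM, and Tnfrsf1a averaged 132 TPM, close to Tnfrsf12a at 129 TPM. Traf4, Tnfrsf19 and Traf2 overlapped in sequence, as did Tnfrsf26, Tnfsf13, Tnfrsf22 and Traf3. Traf2 lay above Tnfrsf26, and Traf3 above Tnfrsf1b, with no overlap. From Tnfrsf1b down to Tnfrsf10b, every neighbouring pair overlapped.

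Replicate 2 held the lowest value of a subset of members, and other libraries held extremes of other members. Summed markers of macrophages were at 1211 TPM in replicate 2 and at 1612 to 1915 TPM in the others, a ratio of 0.679 to the mean of the other libraries. The corresponding ratios were 1.05 for neuron, 1.05 for Schwann cell, 0.951 for satellite glia and 1.02 for fibroblast markers. Summed Schwann cell markers were lowest in replicate 1, at 6487 TPM against 7266 to 7535 TPM in the others, which raises the Schwann cell ratio. All 10 macrophage markers were detected. C1qa, C1qc and C1qb made up most of the macrophage sum, at 363, 342 and 262 TPM in replicate 2. Cx3cr1 was not lowest in replicate 2, at 2.62 TPM there and 1.52 TPM in replicate 4. Every other listed macrophage marker was lowest in replicate 2. Of the 25 detected members, 10 had their lowest value in replicate 2, or 40.0%, against 16.9% of all detected genes. Those 10 were Tnfsf13b, Tnfsf13, Tnfrsf1b, Fas, Eda2r, Tnfrsf25, Faslg, Tnfrsf26, Tnfrsf22 and Tnfsf18. Tnfrsf11a was not among them, at 2.58 TPM in replicate 2 and 2.50 TPM in replicate 1.

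The low values in replicate 2 were of unequal size. Tnfsf13b was at 1.89 TPM in replicate 2, against 2.12 to 3.17 TPM in the others. Tnfrsf1b was at 4.54 TPM in replicate 2, against 5.68 to 6.60 TPM. Fas was at 2.40 TPM there, against 2.85 to 3.86 TPM. Some gaps were narrow, as for Tnfsf18 (3.29 TPM, against 3.33 to 3.82 TPM) and Tnfrsf25 (2.56 TPM, against 2.66 to 3.59 TPM). Tnfrsf26 (10.08 TPM, against 10.23 to 15.8 TPM) and Tnfrsf22 (9.23 TPM, against 9.51 to 10.7 TPM) were also lowest by little. Eda2r, Tnfrsf26 and Tnfrsf22 were highest in replicate 1, where summed macrophage markers were at 1612 TPM, next lowest after replicate 2. Among undetected members, Tnf, Cd40 and Ltb were also lowest in replicate 2, at ratios of 0.481, 0.446 and 0.359 to the mean of the others, on few reads. Traf1, Tnfsf15 and Traf5, the other undetected members with a mean above 0.5 TPM, were not lowest there, at ratios of 0.955, 0.974 and 1.00. Tnfrsf12a, Tnfrsf21, Tnfsf12, Traf3 and Traf4 had their highest value in that library, at ratios of 1.07 to 1.11. In bulk RNA, fewer cells of a type and less RNA per cell cannot be told apart, and the part of macrophage RNA in these values was not tested.

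**Figure D3:**
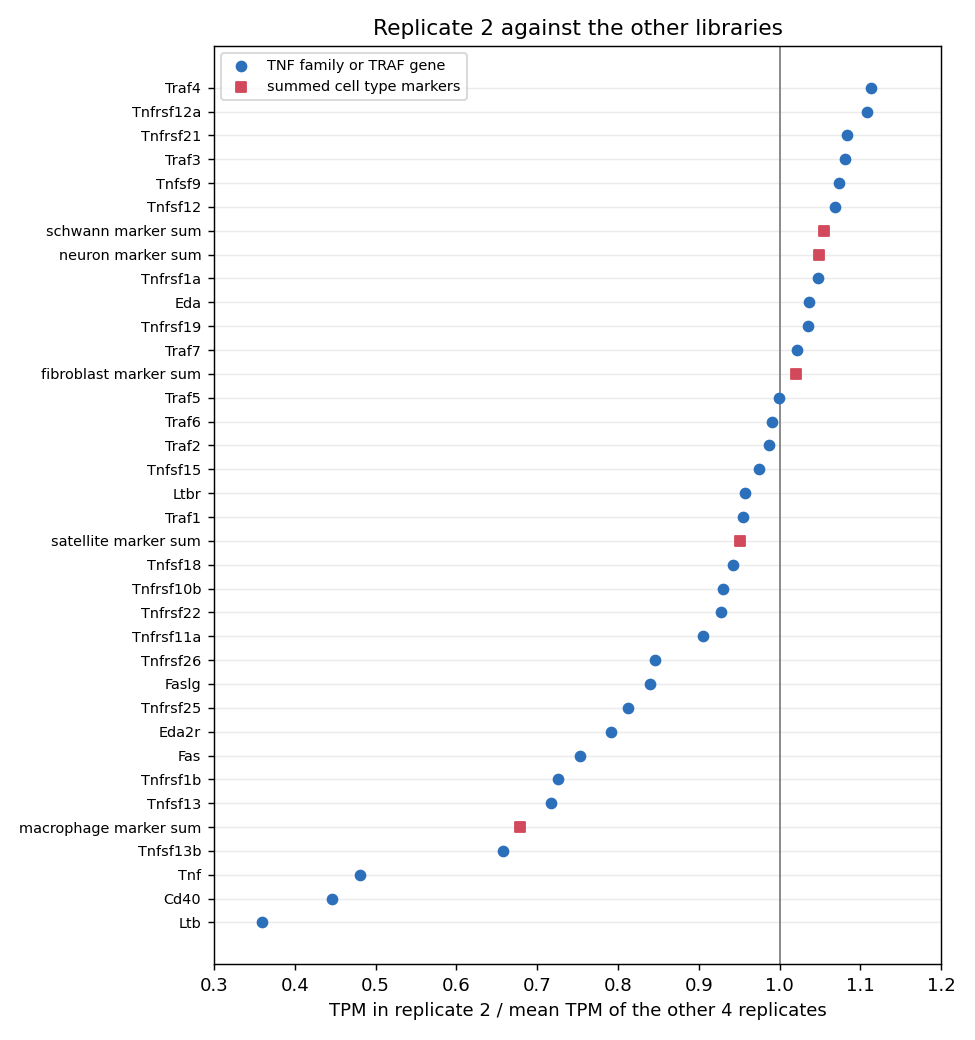
TPM in replicate 2 divided by the mean TPM of the other 4 replicates for detected members and for undetected members with a mean above 0.5 TPM (circles), and for summed markers of 5 cell types (squares). Ltb, Cd40, Tnf and Tnfsf13b lie left of the macrophage marker sum at 0.679, while the neuron and Schwann cell sums lie at 1.05.

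The median CV of detected members was 7.36%, beside 5.59% for all detected genes. It ran up to 23.8% for Tnfrsf10b. Counting error alone gives a CV of 1.30% for Tnfrsf21, 2.71% for Tnfrsf12a and 3.74% for Tnfsf12, whose observed CVs were 4.23%, 6.14% and 3.77%. For Tnf, counting error gives 18.4% and the observed CV was 26.6%.

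Isoforms could be described for 14 of the 25 detected members, whose named transcripts summed to within 10% of the gene TPM in every library. In 8 of them at least a pair of transcripts each held over 10% of the gene's TPM. Traf6 was divided over 3 transcripts, of 7638, 2753 and 7592 bases, with shares of 40.1% ± 10.5, 30.5% ± 4.56 and 29.4% ± 10.4 (SD, n = 5). Traf2 was led by a transcript of 2098 bases at 52.1% ± 11.6, and Eda by one of 4917 bases at 60.2% ± 15.6. The share of the leading Eda transcript ranged from 40.1% to 72.4% in single libraries. Faslg had a transcript of 1623 bases at 83.9% ± 3.30 of TPM and one of 9692 bases at 16.1% ± 3.30. Counted as estimated reads, the longer Faslg transcript took 56.7%. The leading transcript held 89.2% ± 2.51 for Ltbr, 88.6% ± 3.94 for Tnfsf12, 75.2% ± 11.4 for Tnfrsf11a and 58.4% ± 11.9 for Tnfrsf22.

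Genes of the pathway beyond the family were present almost throughout. Of 45 listed signalling genes 43 were detected, against 41.3% of all genes. The median level of all 45, detected or not, was 22.2 TPM, beside 20.5 TPM for detected genes of the whole table. Among adaptors and kinases, 14 of 16 were detected. The highest was Tab2, an adaptor of the kinase TAK1, at 43.9 ± 1.17 TPM (0.780 TPM with named transcripts alone) and Ikbkb, an I-kappa-B kinase, at 31.9 ± 1.44 TPM. Fadd and Tradd, the adaptors of death domains, were at 22.6 ± 2.23 and 15.4 ± 1.27 TPM, with 0.940 TPM in the named transcripts of Tradd. Edaradd, the adaptor of the undetected receptor Edar, was the lowest at 0.340 ± 0.0438 TPM, below 1 TPM by limma (log2 -1.33, limma adjusted p = 4.36e-06). Traip was undetected as well.

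The 10 ubiquitin regulators were all detected. They were led by Tnip1 at 60.1 ± 3.85 TPM and Rbck1, a subunit of the linear ubiquitin ligase, at 49.9 ± 2.09 TPM, and the lowest by mean was Birc3, which encodes cIAP2, at 3.31 ± 0.123 TPM. Tnfaip3, the gene of the NF-kB inhibitor A20, was close to it at 3.40 ± 0.356 TPM, lay below it in replicate 1 and held 0.219 TPM in named transcripts. All 8 NF-kB genes were detected, with Rela at 76.9 ± 1.78 TPM, Nfkb1 at 45.0 ± 1.03 TPM and Rel, best known from lymphoid cells, lowest at 1.53 ± 0.0741 TPM. Named transcripts held 18.9 TPM of Nfkb1 and none of Rel.

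All 7 cell death genes were detected. Bid, a BH3-only gene cleaved by caspase 8, was at 54.0 ± 4.49 TPM, and Casp8, the initiator caspase of death receptors, was lowest at 5.38 ± 0.415 TPM. The 4 shedding genes were detected, with Adam10 at 114 ± 2.99 TPM, the iRhom gene Rhbdf1 at 94.4 ± 4.24 TPM and the iRhom gene Rhbdf2 lowest at 29.3 ± 1.87 TPM. Adam17, the protease that releases TNF from the membrane, was at 71.5 ± 2.02 TPM.

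**Figure D4:**
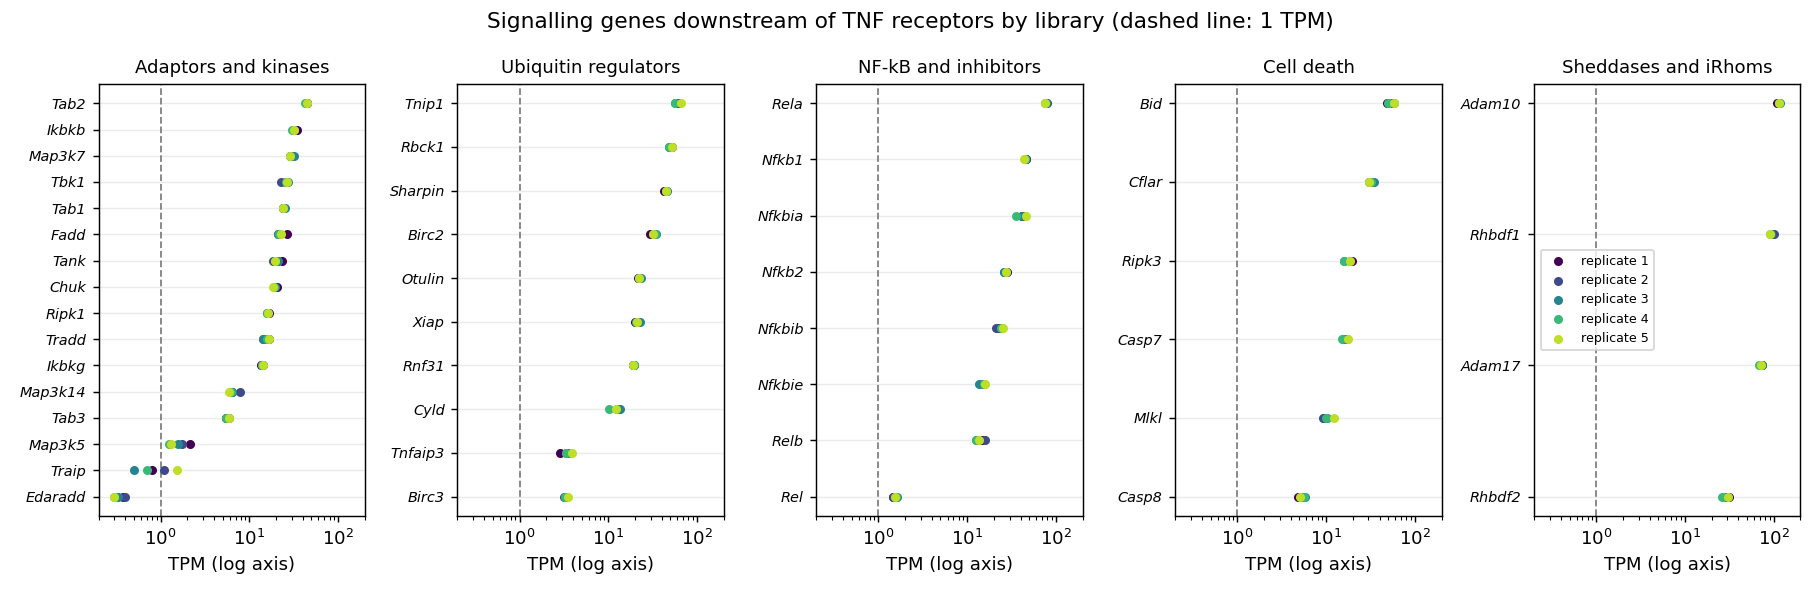
TPM of signalling genes in each library on a log axis, in 5 panels by function, with 1 point per replicate and a dashed line at 1 TPM. Traip and Edaradd are the 2 genes with values under 1 TPM, and Rela, Adam10 and Rhbdf1 are among the highest.

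Promoter windows from RefSeq (GRCr8, 250 bases before to 50 after the annotated start) were found for 39 members, 20 detected and 19 not. The start used in these cultures is not known. Windows of detected members held a median of 12.5 CpG dinucleotides (range 2 to 57), against 7 (range 2 to 30) for undetected members. The medians were 21 for all detected genes and 5 for all undetected genes with a window. The letters TATAAA, searched on both strands, occurred in 4 of 20 windows of detected members, against 5 of 19 for undetected members, with 6.65% for all detected genes, 18.03% for all undetected genes and 14.3% for all promoters. Windows of Traf4 and Tnfrsf1a, detected members that differ in CpG count, and of Tnf, which was undetected, are shown as examples of a CpG-rich and of CpG-poorer windows, with CpG in capitals, 5′ to 3′ on the gene's own strand. They lie at chr10:63558307-63558606 (minus strand), chr4:159836869-159837168 (plus strand) and chr20:3626435-3626734 (plus strand) of GRCr8 and hold 40, 13 and 9 CpG.
Traf4: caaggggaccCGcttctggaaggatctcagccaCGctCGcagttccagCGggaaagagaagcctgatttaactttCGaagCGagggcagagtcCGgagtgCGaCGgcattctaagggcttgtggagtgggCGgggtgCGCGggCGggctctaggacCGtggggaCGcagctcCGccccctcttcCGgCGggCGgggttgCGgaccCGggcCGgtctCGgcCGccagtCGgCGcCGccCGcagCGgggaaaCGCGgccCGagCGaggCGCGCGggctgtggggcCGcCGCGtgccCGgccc
Tnfrsf1a: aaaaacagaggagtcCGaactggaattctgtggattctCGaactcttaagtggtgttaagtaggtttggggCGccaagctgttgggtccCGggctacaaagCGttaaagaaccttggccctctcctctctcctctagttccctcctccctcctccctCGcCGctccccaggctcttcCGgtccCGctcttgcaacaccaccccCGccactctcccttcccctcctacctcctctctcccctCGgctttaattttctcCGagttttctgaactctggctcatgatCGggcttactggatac
Tnf: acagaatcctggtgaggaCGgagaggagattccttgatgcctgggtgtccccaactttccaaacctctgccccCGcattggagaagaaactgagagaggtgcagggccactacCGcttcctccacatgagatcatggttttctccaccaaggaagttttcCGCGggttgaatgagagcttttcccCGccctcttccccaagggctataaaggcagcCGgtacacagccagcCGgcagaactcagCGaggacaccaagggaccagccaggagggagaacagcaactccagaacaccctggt

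The NF-kB consensus, searched by its standard ambiguous form on both strands with each place counted once, occurred in 1 of 20 windows of detected members (5.0%) and in 5 of 19 of undetected members (26.3%), with 5.08% for all detected genes, 4.06% for all undetected genes and 4.16% for all promoters. The detected gene was Traf3, and the undetected ones were Ltb, Lta, Cd70, Tnfsf14 and Tnfrsf8. These counts describe letters in a window and say nothing of binding. The 6 places are printed with the match in capitals and flanks of the window in lower case, read on the gene's strand. They show how the matches differ. For Ltb and Tnfrsf8 the match lies on the opposite strand, so the printed letters are its reverse complement. Cd70 holds a pair of overlapping matches, and the first is printed.
Traf3: ggcggcccgcGGGGATTTCCagcgcgcgag
Ltb: tagggtgttcGGAAAGTCCCaggcagggga
Lta: ctaagccctgGGGGCTTCCCcaggccctag
Cd70: acaagctccaGGGGATTTCCctgccccctg
Tnfsf14: acatcgagcaGGGGCTTCCCcatccatctc
Tnfrsf8: tcaaaacgaaGGGGAGCCCCctgagtgcgt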

How the data were processed

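Poly-A RNA of 5 cultures was measured, all of 1 group. The submitters' processing notes name Salmon 1.5.1, cutadapt 2.8, Trim Galore 0.6.6 and the build mRatBN7.2. Settings for strand and multiple mapping were not given in the sources. The authors deposited a combined table of gene-level TPM, scaled to 1000000 per library, and per-transcript TPM and estimated counts of reads per the file headers. TPM was used as deposited. Transcripts were joined to genes by RefSeq accession without version through a GRCr8 table, which named 67330 of 98811 transcripts (68.1%). Effective lengths per the file headers are another deposited value (other), used for floors.

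Levels were tested against 1 TPM on log2(TPM + 0.1) with limma 3.58.1 (intercept only, genes above 0 in any library, Benjamini-Hochberg over all genes, two-sided, threshold 0.05). The code was run on simulated data with a normal spread around 1 TPM, which does not cover genes near 0. Pairs of genes were tested by an exact sign-flip permutation over libraries. Fold changes on the log2(TPM + 0.1) scale understate ratios of low genes. Alternatives were detection at 0.5 or 2 TPM, pseudocounts of 0.01 or 1, a mean TPM of at least 0.1, sums of named transcripts, shares of reads and leaving out each replicate. Members, lists and pairs were chosen with earlier results of these data known. Every member is reported; values in every library are given for the 3 highest ligands, death domain receptors, receptors without one and TRAF genes, for Tnfrsf11b and for Tnf, with those of Fas and Faslg added after they were seen, and the 2 highest and the lowest of each pathway list are named. Other pathway genes named were chosen after their values were seen. A cell death gene that the rule would name is not reported here. No protein sequence is printed.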

Additional observations from a re-analysis of the deposited data

Results flagged for a closer look

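Levels, pair ratios and isoform shares, 97 in all, were examined over the 5 libraries for a single library far from the others, by its gap to the nearest one over the whole range. For independent values with a normal spread, chance alone marks about 1 in 20 such groups. Here 13 were marked. Pair ratios reuse gene levels and some genes had very few reads, so that count cannot be set against this rate. Among detected members, Tnfrsf26 was at 15.8 TPM in replicate 1 against 10.1 to 11.2 TPM in the others, Tnfrsf10b at 2.94 TPM in replicate 1 against 1.75 to 1.96 TPM, and Eda at 4.74 TPM in replicate 4 against 5.49 to 5.71 TPM. Tnf was at 0.734 TPM in replicate 2 against 1.46 to 1.66 TPM in the others, which also set the ratio Tnfrsf1a over Tnf in that library, at log2 7.54 against 6.34 to 6.64. Tnfsf12 over Tnfsf13 reached log2 2.29 in replicate 2 against 1.59 to 1.78.

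The remaining values rest on very few reads. Tnfsf11 was at 0 TPM in replicate 1 against at most 0.335 TPM in the others, so Tnfrsf11a over Tnfsf11 was log2 4.70 there against 2.73 to 3.04. Cd70 was at 0 TPM in replicate 5 and Cd27 at 0.0991 TPM in replicate 1. Edar (0.0203 TPM), Tnfrsf13c (0.0391 TPM) and Tnfsf8 (0.129 TPM) each had a value above 0 in a single library.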

How the results depend on the processing

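Detected members numbered 29 at 0.5 TPM, 23 at 2 TPM and 21 with sums of named transcripts, and 25 to 26 with each replicate left out. Members called above 1 TPM by limma numbered 21 to 26 over all alternatives, including 25 to 26 without single replicates, and members called below numbered 13 to 20 (17 to 19 without single replicates). The value of 13 came with a mean TPM of at least 0.1, which leaves fewer genes to test. With named transcripts alone Tnfsf18 was called below 1 TPM (limma adjusted p = 0.00178). Of 30 pairs, 28 kept the sign of their mean log2 ratio under every alternative run. That does not make a mixed pair firm: Tnfrsf11b over Tnfsf11 fell from 0.63 to 0.07 without replicate 1. Tnfrsf18 over Tnfsf18 turned to 0.12 with named transcripts alone, since unnamed transcripts of Tnfsf18 are left out there. Tnfrsf14 over Tnfsf14, a mixed pair at -0.09, ran from -0.28 to 0.15 with a replicate left out, and was 0.15 without replicate 3; the cause was not tested. By share of reads in place of TPM, Faslg transcripts held 43.3% and 56.7% and the Traf6 transcript of 2753 bases held 12.8%, as reads grow with length. The median CV ran from 6.91% to 7.63%. Pairs could not be computed with named transcripts where a member has none (Tnfrsf10b). Genes were paired within libraries, but no pairing of samples between conditions was possible because there is 1 group. Depth limits genes near 0: 3 reads over all libraries correspond to 0.0772 TPM for Cd40lg.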
